A study of Homo sapiens with 6 samples.

Results

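Poly(A) site use after siRNA against CF Im25 was compared with use after a scrambled siRNA in HEK293 cells, a line derived from human embryonic kidney. The comparison held 2 of the 6 A-seq libraries of the series, chosen by their titles, with 1 library a group. The CF Im25 library came from cells given the siRNA Ambion S224836, and its control from cells given the siRNA scrambled-A. Both were harvested 3 days after the siRNA, and their poly(A) RNA was broken by alkaline hydrolysis. Alkaline libraries of cells with no siRNA and with CF Im59 siRNA (Ambion S21772), and 2 RNase I libraries with scrambled-A and with CF Im68 siRNA, were used for reference. The knockdown rests on 1 siRNA and 1 library, so an effect of this siRNA on other targets cannot be told apart from loss of CF Im25. Gene annotation of the files' build was not used here. Loci are therefore given by hg19 positions, and neither the level of the siRNA target nor markers of HEK293 cells were analysed here.

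CF Im25, encoded by NUDT21, is the small subunit of cleavage factor Im. A dimer of it binds UGUA in nascent RNA upstream of cleavage sites, and the larger subunits CF Im59 and CF Im68 join it and help to recruit the cleavage and polyadenylation machinery. Many transcripts carry several poly(A) sites in a row, and use of an upstream (proximal) site gives a shorter 3' UTR with fewer binding sites for microRNAs and proteins. CF Im is known for favouring downstream (distal) sites in many cell types.

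A-seq reads end where the transcript body meets the poly(A) tail. The reverse transcription primer anchors at that junction, so that the cDNA carries 6 As of the tail (capitals below) before the library adapter. It is shown because it sets which nucleotide is counted as the end.
A-seq adapter: AAAAAAtggaattctcgggtgccaagg

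The libraries held 10659900 reads with CF Im25 siRNA, 9690883 with scrambled siRNA and 18183644 with no siRNA. The value at each nucleotide is the number of reads that end there. Ends within 25 nt of a local maximum were taken as 1 poly(A) site, and sites averaging 1 CPM or more (counts per megaread of a library) were joined into a unit where neighbours on a strand lay no more than 5 kb apart. There were 49695 nuclear sites in 28114 units. In 8999 units the 2 most used sites, each with at least 5% of the unit's reads, formed a pair, and the upstream site's percentage of the pair's reads is called the proximal share. A unit is not a gene, and it can join the ends of neighbouring transcripts. Since each group held 1 library, replicate error could not be estimated and no test across loci was made. A pair was called shifted by a rule of size: a change of at least 20 percentage points, at least 50 reads over the pair in both libraries and a 95% interval of the difference (Newcombe) that excluded 0. Intervals cover counting error only.

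With CF Im25 siRNA, use moved from distal to proximal sites at many loci. The median proximal share of the 6702 pairs tested was 38.6% with scrambled siRNA and 50.4% with CF Im25 siRNA. The median change within a pair was smaller, 4.19 points (interval 3.78 to 4.58 over pairs), and for no siRNA it was -1.15 points. Of these pairs 1227 (18.3%) shifted to the proximal site and 188 (2.81%) to the distal site. With no siRNA in place of CF Im25 siRNA, 1.21% of 7177 pairs shifted proximally and 2.52% distally against the same scrambled library. Against scrambled siRNA, the proximal count thus lay far above this background, while the distal count was close to it. Larger distal shifts, of at least 40 points, were called at 21 pairs after CF Im25 siRNA and at 3 pairs for no siRNA. Measured against the no siRNA library, which has more reads, 1472 of 7209 pairs (20.4%) shifted proximally after CF Im25 siRNA and 142 (1.97%) distally. For that control the background is scrambled against no siRNA, with 2.52% of pairs shifted proximally and 1.21% distally. Both shares after CF Im25 siRNA were higher than this background.

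The middle part of the distribution moved as well as its tail. The change in proximal share had an interquartile range of -2.22 to 15.1 points after CF Im25 siRNA and of -5.79 to 2.37 points for no siRNA. Rises of at least 60 points were called at 42 pairs after CF Im25 siRNA and at 0 pairs for no siRNA. Just outside the 20-point rule lay pairs with changes of 19.97 to 19.99 points, and just inside it pairs with 20.01 points.

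**Figure D1:**
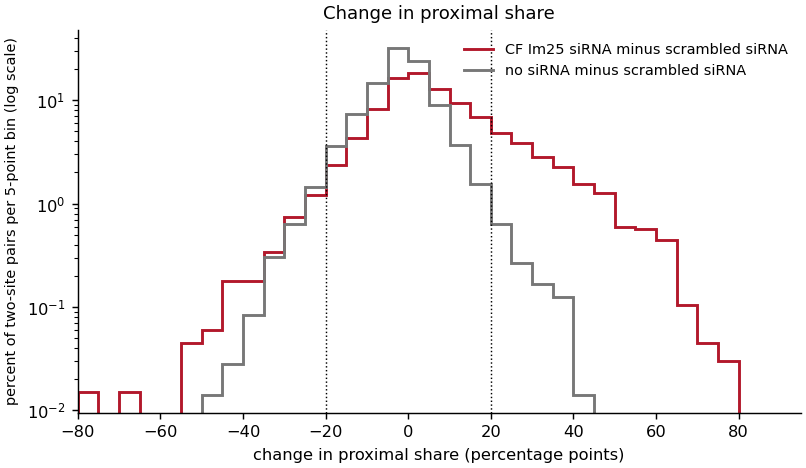
Percent of pairs (log scale) in bins of 5 points of change in proximal share, for CF Im25 siRNA (6702 pairs) and no siRNA (7177 pairs), each minus scrambled siRNA. Dotted lines mark the 20-point rule. The upper tail of CF Im25 siRNA extends past 60 points, while the lower tails lie close together between -20 and -35 points and CF Im25 siRNA has more pairs below that.

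At part of the pairs the main site itself changed. With scrambled siRNA the distal site was the main one in 3956 of the 6702 pairs. In 643 of these (16.3%, exact binomial interval 15.1 to 17.4, loci taken as independent) a shifted pair had its proximal site as the main one after CF Im25 siRNA. That is 9.59% of all pairs tested. The reverse, from proximal to distal, was seen at 75 pairs (1.12%). For no siRNA the same counts were 52 (0.725%) and 92 (1.28%). Against no siRNA as control, 788 pairs (10.9%) moved their main site to the proximal one after CF Im25 siRNA.

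The 643 pairs had median proximal shares of 30.5% with scrambled siRNA and 68.5% with CF Im25 siRNA, and a median distance of 1512 nt between their sites. In the RNase I libraries, whose shares did not enter this choice but whose reads helped to define the sites and pairs, 437 could be tested. Their median share there was 39.1% in the scrambled library and 82.6% after CF Im68 siRNA. The share was higher with CF Im68 siRNA at 415 of the 437, against 72.9% of the 4815 pairs tested in both. With sites and pairs defined on the 4 alkaline libraries alone, an alternative chosen after seeing the data, the share was higher at 404 of 428 such pairs (94.4%), against 73.3% of 4284. Main sites moved from distal to proximal in 180 of these 437 pairs by the same rule. Of the 437, 260 had a distal main site in the scrambled RNase I library and so could move. Of the 4815 pairs tested in both, 2800 had a distal main site there, and 663 moved. Over all 5291 pairs tested in the RNase I libraries, whatever their main site, 13.5% moved. The 188 pairs that shifted distally behaved otherwise. Of the 100 that could be tested, 44 had a higher and the others a lower or equal share with CF Im68 siRNA, with a median change of -0.761 points.

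In most shifted pairs the proximal site gained reads, and in most the distal site lost reads. Site reads were divided by each library's sum over nuclear units after adding 0.5 reads. Of the 1227 pairs shifted proximally, 586 (47.8%) had a proximal site at least 1.5-fold higher together with a distal site at least 1.5-fold lower. In 319 the proximal site was higher and the distal site stayed within 1.5-fold, and in 269 only the distal site was lower. Both sites were higher in 33 pairs and both lower in 20. The median log2 ratio was 1.30 at the proximal and -1.09 at the distal site. These ratios use the same libraries as the calls, so they describe how the shares changed and do not support the calls. Among the 5287 pairs not called, the medians were 0.08 and -0.18.

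The 10 largest rises were taken from called pairs with at least 100 reads in each library and the same direction against no siRNA. At 9 of the 10, the 4 alkaline libraries fell in the same way, with the CF Im25 library at 73.4% or more and the other 3 at 38.8% or less. The proximal site 104152248 on chromosome 9 (minus strand) had 26 of 161 reads with scrambled siRNA and 178 of 199 with CF Im25 siRNA, and reads at the distal site 104149916 fell from 135 to 21. The total of that unit was 18.5 CPM and 20.6 CPM, so the total differed little while the site used differed.

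The proximal site 97621841 on chromosome 8 (plus strand) lies 1020 nt upstream of 97622861. It held 6.56% of 701 reads with scrambled siRNA, 10.8% with no siRNA, 23.6% with CF Im59 siRNA and 73.4% of 941 reads with CF Im25 siRNA. The change against scrambled siRNA was 66.9 points (interval 63.29 to 70.03). A site that was rarely used in both controls was thus the main one in the CF Im25 library. The proximal site 12985718 on chromosome 18 (plus strand) held 16.5% with scrambled siRNA, 17.4% with no siRNA, 17.7% with CF Im59 siRNA and 82.9% with CF Im25 siRNA. The change over the 1809 nt to the distal site 12987527 was 66.3 points (58.9 to 72.3). On the minus strand of chromosome 1, the proximal site 54233394 held 24.2% of 124 reads with scrambled siRNA, 29.4% with no siRNA, 36.2% with CF Im59 siRNA and 90.3% of 269 reads with CF Im25 siRNA. The 3 reference libraries lay at 36.2% or less at both loci, far below the CF Im25 library.

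The distance between the sites of these 10 pairs ran from 527 to 5380 nt. The longest was on the plus strand of chromosome 6, between 147706227 and 147711607, where the proximal site held 11.3% of 204 reads with scrambled siRNA, 7.19% with no siRNA, 2.43% with CF Im59 siRNA and 76.2% of 252 reads with CF Im25 siRNA. The shortest was on the minus strand of chromosome 17, between 73774632 and 73774105, where the proximal site held 26.3% of 939 reads with scrambled siRNA, 30.1% with no siRNA, 44.2% with CF Im59 siRNA and 92.0% of 2884 reads with CF Im25 siRNA. At this pair the CF Im59 library stood above both controls as well, by less than the CF Im25 library did.

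Total reads moved in either direction where the site changed. The unit on the minus strand of chromosome 17 just described had 2.10-fold more reads with CF Im25 siRNA (153 and 323 CPM). On the plus strand of chromosome 10 the share of the proximal site 65380730 was 30.1% with scrambled siRNA and 94.5% with CF Im25 siRNA, and the unit rose 3.84-fold, from 17.9 to 68.5 CPM. Reads at its distal site 65384336 were 93 and 36. The unit had 21.9 CPM with no siRNA. With CF Im59 siRNA it had 46.2 CPM and a proximal share of 22.9%, so its total was higher there without a rise in share. At the sites 62541465 and 62538423 on chromosome 17 (minus strand), the share was 18.1% of 221 reads and 87.1% of 139 reads, while the unit had 37.1 CPM with scrambled siRNA and 17.7 CPM with CF Im25 siRNA. No siRNA gave 24.5 CPM and CF Im59 siRNA 29.8 CPM, so the fall against no siRNA was smaller. In bulk RNA, fewer cells with a transcript and less of it per cell cannot be told apart.

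The RNase I libraries gave high shares at these pairs after CF Im68 siRNA, from 87.6% to 99.7%. Their scrambled library was not always low. At the pair on chromosome 9 it held 95.6%, where the alkaline scrambled library held 16.1%, and at the pair on chromosome 1 it held 3.86%. The scrambled libraries compared here differ in fragmentation, and its part in these values was not tested.

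The 6 largest falls were chosen in the same way. The proximal site 46645926 on chromosome 6 (plus strand) held 94.3% of 176 reads with scrambled siRNA, 92.2% with no siRNA and 43.5% of 248 reads with CF Im25 siRNA. In the RNase I libraries it held 82.0% of 89 reads with scrambled siRNA and 31.25% of 48 reads with CF Im68 siRNA. The change was -50.8 points in both comparisons. The proximal site 98929406 on chromosome 12 (plus strand) held 97.4% with scrambled siRNA, 97.6% with no siRNA, 94.2% with CF Im59 siRNA and 53.6% with CF Im25 siRNA, a fall of 43.8 points (interval -51.2 to -35.8). Both loci were almost wholly proximal in the alkaline controls and mixed after CF Im25 siRNA. The proximal site 178086110 on chromosome 2 (plus strand) held 45.5% of 233 reads with scrambled siRNA, 46.2% with no siRNA, 57.8% with CF Im59 siRNA and 3.72% of 806 reads with CF Im25 siRNA. Reads at its distal site 178086899, which lies 789 nt downstream, rose from 127 to 776. The same site held 53.2% in the scrambled RNase I library and 1.71% after CF Im68 siRNA.

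In the RNase I pair the site on chromosome 12 held 98.5% and 83.5%, a smaller difference than in the alkaline pair. At the other 3 falls the CF Im68 comparison also gave smaller differences or the opposite direction. At 78414090 on chromosome 1 (minus strand), the share was 94.3% with scrambled siRNA and 49.8% with CF Im25 siRNA, and 94.0% and 81.7% in the RNase I pair. At 180274615 on chromosome 5 (minus strand), it was 75.9% and 33.6%, with 69.1% for no siRNA and 51.3% for CF Im59 siRNA, and 73.4% and 67.4% in the RNase I pair. At 24907610 on chromosome 14 (plus strand), it was 78.8% and 33.8% in the alkaline pair, and 6.63% and 11.9% in the RNase I pair. The CF Im59 library held 35.6% at that site, close to the CF Im25 library.

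**Figure D2:**
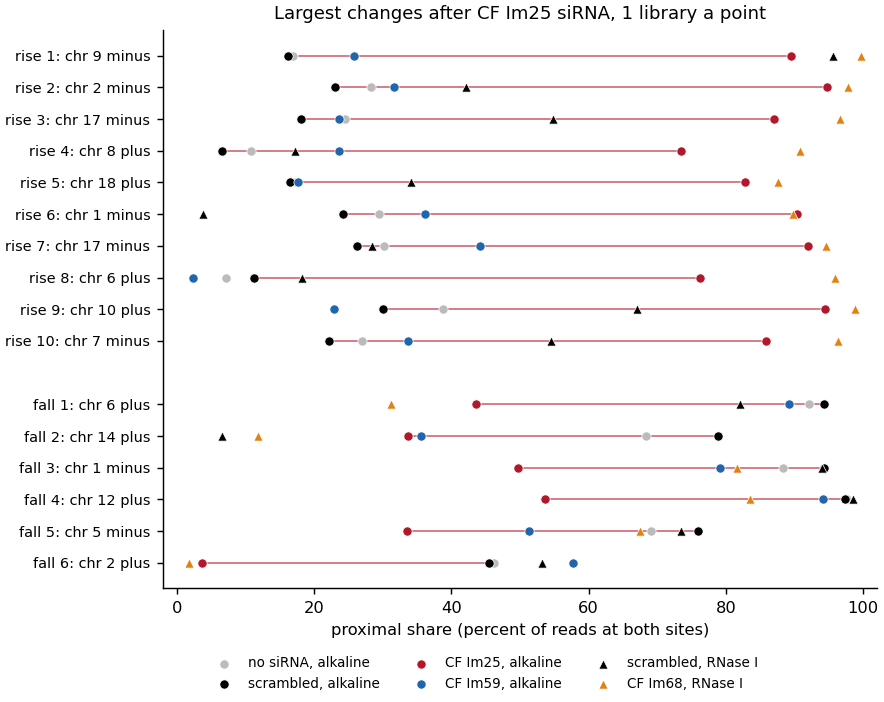
Proximal share (percent) of the 10 largest rises and 6 largest falls in all 6 libraries, 1 point a library (circles alkaline, triangles RNase I), with a line from scrambled to CF Im25 siRNA. In the rises the CF Im25 points lie at 73.4% or more and the alkaline reference points at 44.2% or less.

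The 4 shifted pairs with the most reads had smaller changes with narrow intervals. The proximal site 23961043 on chromosome 3 (plus strand) held 58.5% of 8933 reads with scrambled siRNA, 58.7% with no siRNA, 51.1% with CF Im59 siRNA and 83.4% of 8716 reads with CF Im25 siRNA, a rise of 24.9 points (23.6 to 26.2). On the plus strand of chromosome 10, the proximal site 85912301 held 13.4% of 5773 reads with scrambled siRNA, 16.5% with no siRNA and 42.0% of 2888 reads with CF Im25 siRNA. Its unit fell from 694 to 312 CPM, with 449 CPM for no siRNA. The proximal site 33870897 on chromosome 19 (plus strand) held 23.6% with scrambled siRNA, 19.1% with no siRNA and 45.8% with CF Im25 siRNA, and the unit had 667 and 329 CPM. Reads at the proximal site of the locus on chromosome 10 were 771 and 1214 and at its distal site 5002 and 1674. At the locus on chromosome 19 they were 1312 and 1417 at the proximal and 4253 and 1680 at the distal site, so the distal reads were fewer at both. The proximal site 48835521 on chromosome 13 (plus strand) rose from 69.1% to 91.1%. The no siRNA library held 78.6% there, and the change against it was 12.4 points, below the 20-point rule.

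Units with more than 2 sites showed a graded change along the strand. Shares were taken of the whole unit and averaged over units with the same number of sites, numbered from the 5' side. In 1226 units with 4 sites, the mean change from scrambled to CF Im25 siRNA was 6.71 points at the first site, 2.38 at the second, -3.36 at the third and -5.72 at the last. In 402 units with 6 sites it was 6.98, 4.10, 0.51, -1.73, -4.42 and -5.44 points from first to last. The change thus passed from gain to loss near the middle of the unit. The first of 6 sites held 11.2% on average with scrambled siRNA and 18.2% with CF Im25 siRNA, and it was higher in 75.4% of the units. In units of 7 sites the second site gained most (4.79 points) and the first 3.48 points, so the gain was not always largest at the 5' end. For no siRNA against scrambled siRNA the order was the opposite and smaller, with -1.27, -0.93, 0.02 and 2.18 points in units with 4 sites.

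**Figure D3:**
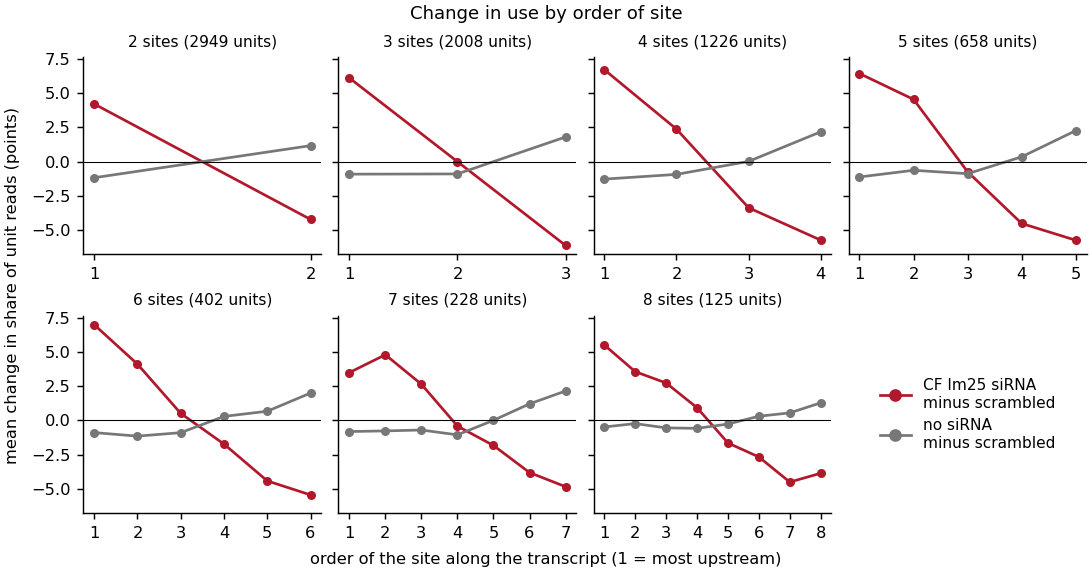
Mean change in the share of a unit's reads (percentage points) at each site, numbered from the 5' side, in units of equal numbers of sites, for CF Im25 siRNA and no siRNA, each minus scrambled siRNA. CF Im25 siRNA runs from gain at the first sites to loss at the last, from 6.71 to -5.72 points with 4 sites.

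The mean end position of a unit, weighted by reads, moved upstream in 68.5% of 7770 units with several sites, with a median of -33.6 nt (interval -37.9 to -29.4 over units). It moved upstream by at least 200 nt in 2184 units (28.1%) and downstream by as much in 598 (7.70%). Moves of at least 1000 nt were upstream in 385 units and downstream in 72. The median was -4.67 nt in units with 2 sites, -38.4 nt with 3 and -82.1 nt with 4. For no siRNA against scrambled siRNA the median was 6.67 nt, with 476 of 8191 units (5.81%) moved upstream by at least 200 nt and 1127 (13.8%) downstream. That median was 1.21 nt in units with 2 sites, 7.43 nt with 3 and 23.2 nt with 4. The size of the move thus grew with the number of sites in this comparison too, in the opposite direction.

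Some sites were nearly unused in both controls and common after CF Im25 siRNA. A site was taken as gained when it held under 5% of its unit's reads with scrambled and with no siRNA and at least 20% with CF Im25 siRNA, and as lost in the reverse case, with at least 50 unit reads in each library. Of 26936 sites 130 (0.483%) were gained and 99 (0.368%) lost. With CF Im59 siRNA in place of CF Im25 siRNA, 0 of 27280 sites were gained (0%, and a count of 0 allows up to 0.0110%) and 4 (0.0147%) lost. Among the gained sites 85 were the first of their unit, 36 inner and 9 the last, and 120 lay upstream of the main site of the controls. Among the lost sites 72 were the last of their unit, 78 lay downstream of the controls' main site and 17 were that main site. Over all sites tested 7759 were the first of their unit, 11434 lay upstream of the main site and 7743 downstream. The rule did not use position. The gained sites lay at a median of -1985.5 nt from the main site.

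The shares in the RNase I libraries did not enter this rule, but their reads helped to define which sites were kept. Of the gained sites, 107 had at least 50 unit reads in both, and all 107 held a higher share with CF Im68 siRNA, with medians of 3.70% and 37.6%. Over all sites tested the share was higher in 48.4%. Of the lost sites 72 could be compared, and 69 (95.8%) held a lower share with CF Im68 siRNA, with medians of 14.7% and 1.75%, against 51.2% of all sites. All sites are not a like comparison, since gained sites were mostly first and lost sites mostly last in their units. In units with 2 to 8 sites, the first site's share was higher with CF Im68 siRNA in 67.4% to 74.5%. The last site's share was higher in 17.9% to 31.9%. With sites defined on the 4 alkaline libraries alone, 100 of 102 gained sites held a higher share with CF Im68 siRNA, with medians of 2.95% and 37.8%, and 67 of 70 lost sites a lower one. These libraries share neither siRNA nor fragmentation with the CF Im25 library, and no control with it.

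The gained site with the most unit reads was 155100303 on the plus strand of chromosome 7, the first of 6 sites and at -1641 nt from the main one (upstream). It held 52 of 1183 reads with scrambled siRNA, 156 of 3500 with no siRNA and 977 of 2729 with CF Im25 siRNA, the last being 35.8%. The share was 3.70% with CF Im59 siRNA and 4.46% with no siRNA. In the scrambled RNase I library it was 22.7%, so this site was not rarely used there, and after CF Im68 siRNA it was 83.5%. On the same chromosome and strand, 65419452 is the first of 10 sites, and its share was 4.29% with scrambled siRNA, 4.83% with no siRNA and 29.0% with CF Im25 siRNA. Its share was 2% in the scrambled RNase I library and 31.8% after CF Im68 siRNA. The lost site with the most unit reads was 229441249 on the plus strand of chromosome 1, which lies 1495 nt downstream of the main site. It held 30.8% of 2158 reads with scrambled siRNA, 29.2% with no siRNA, 32.1% with CF Im59 siRNA and 3.82% of 3695 reads with CF Im25 siRNA. In the scrambled RNase I library it held 4.83%, already under the 5% limit, and after CF Im68 siRNA 0.343%. A lower share need not mean fewer reads. The lost site 56995058 on the minus strand of chromosome 18 held 33.1% of 305 reads with scrambled siRNA and 4.17% of 2735 with CF Im25 siRNA, and its own reads were not fewer. Its share was 75.5% in the scrambled RNase I library and 7.63% after CF Im68 siRNA.

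**Figure D4:**
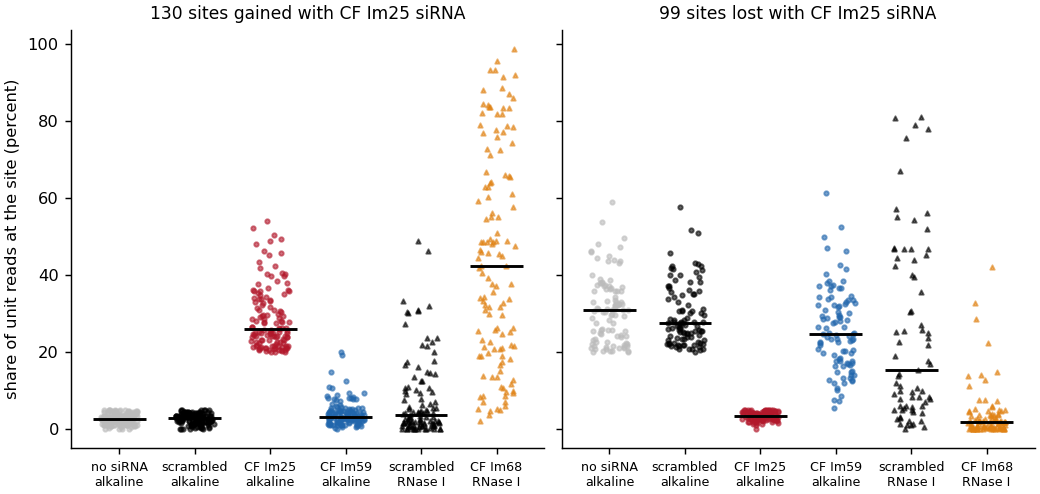
Share of the unit's reads (percent) at the gained and lost sites in the alkaline and RNase I libraries, 1 point a site in units with at least 50 reads in that library, with bars at the medians of the points. The RNase I medians in the text are over sites that passed in both RNase I libraries. Gained sites have medians of 2.75% with scrambled and 26.04% with CF Im25 siRNA.

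Within each class of distance, shifts were fewest where the proximal share was 80% or more, and within each class of share they were fewest under 200 nt. Pairs were grouped by distance and by the proximal share with no siRNA, a library that the rule did not use. Under 200 nt, 3.02% of 562 pairs with a share under 20% shifted proximally. From 1 kb to under 5 kb the same class gave 25.8% of 1084 pairs (exact binomial interval 23.2 to 28.5). The highest share of calls, 32.7% of 875 pairs (29.6 to 35.9), was at that distance with a share of 20% to 50%. At 5 kb or more it was 31.0% of 84 pairs (21.3 to 42.0), an interval that takes in the previous value. Pairs with a share of 80% or more left little room for a rise, and 0 of 234 under 200 nt were called. Shifts were also more frequent in units with more sites, from 13.0% of 2497 pairs in units with 2 sites to 27.4% of 868 pairs in units with 6 or more. With the pairs ranked by reads with no siRNA and split into 5 equal classes, 20.1% of the lowest class and 14.2% of the highest (12.4 to 16.2) shifted proximally.

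**Figure D5:**
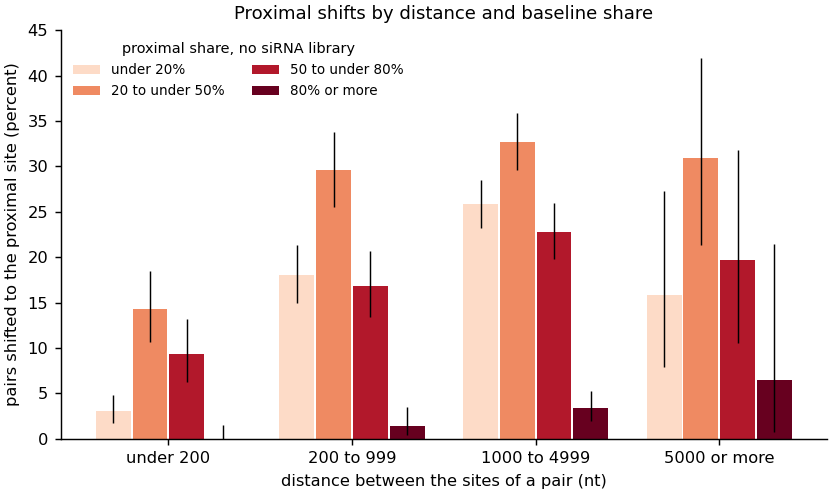
Percent of pairs shifted to the proximal site after CF Im25 siRNA, by distance between the sites (nt) and proximal share with no siRNA, with exact binomial 95% intervals. Values run from 0 under 200 nt with a share of 80% or more to 32.7% from 1 kb to under 5 kb with a share of 20% to 50%.

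The precision of cleavage within a site differed little. Over 8275 sites with at least 100 reads in each library, the median share of a site's reads at its main nucleotide was 66.4% with scrambled siRNA and 65.7% with CF Im25 siRNA. The median change was -0.333 points (-0.454 to -0.247), and for no siRNA it was 0.454 points. Both changes were small and of opposite sign.

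Total reads of units differed in both directions. Of 14983 units, 1968 (13.1%) were at least 2-fold higher with CF Im25 siRNA and 1810 (12.1%) at least 2-fold lower, where the call also needed at least 50 reads in 1 library and an exact interval that excluded 1. For no siRNA 4.29% of 16791 units were higher and 4.3% lower. Units with 1 site were called more often (18.1% higher, 15.3% lower) than units with 4 or more (7.90% and 7.97%). The former held fewer reads, with a median of 84 against 409 with scrambled siRNA. Among units with at least 200 reads in 1 library, the shares were 11.6% and 10.95% with 1 site and 8.13% and 8.13% with 4 or more.

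Several of the largest changes rested on single nucleotides. At 19826022 on the plus strand of chromosome 12, 0 reads were found with scrambled siRNA, 3 with no siRNA, 4 with CF Im59 siRNA and 136 with CF Im25 siRNA, at least 32.6-fold higher by the exact interval, and 90.4% of its reads lay at 1 nucleotide. The 3 larger rises, which also had 0 reads with scrambled siRNA, had reads with CF Im59 siRNA too. These were 80 against 441 with CF Im25 siRNA at 5863900 (chromosome 12 minus), 57 against 192 at 137751500 (chromosome X minus) and 162 against 174 at 12212985 (chromosome 6 plus). Of the single-site units called lower, 250 of 942 (26.5%) had at least 95% of their reads at 1 nucleotide, against 12.9% of those called higher and 15.9% of those not called. Without units that had 90% or more of their reads at 1 nucleotide, a limit chosen after seeing the data, 1732 were higher and 1394 lower. At 185773314 on the plus strand of chromosome 3, reads fell from 500 to 17 (57.6 and 1.76 CPM), with 52.8 CPM for no siRNA and 30.9 CPM for CF Im59 siRNA. The 3 other alkaline libraries were thus well above the CF Im25 library there. The 3 larger falls were shared with CF Im59 siRNA, where the units had 0, 1.73 and 1.65 CPM against 0.10, 0.93 and 1.76 CPM with CF Im25 siRNA (chromosome 6 plus 88499357, chromosome 7 minus 13932897 to 13933802 and chromosome 16 plus 15682116). Scrambled siRNA gave 18.4, 43.7 and 63.8 CPM at these units and no siRNA 15.6, 10.3 and 12.2 CPM. The alkaline controls thus differed from each other on chromosomes 7 and 16. The scrambled RNase I library gave 0.213, 19.2 and 2.13 CPM at these units and 3.63 CPM at the unit on chromosome 3. Each of these values lay below the alkaline scrambled library. After CF Im68 siRNA they were 0.456, 1.73, 0.730 and 0.730 CPM in the same order. The part of fragmentation in these values was not tested.

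Units with several sites were looked up after their values had been seen. Such units can rest on 1 nucleotide too, as 2 of the 3 largest falls among them did, with 91.3% and 96.5% of their reads there (chromosome 7 minus, 13932897 to 13933802, and chromosome 1 minus, 51577062 to 51577222). On the minus strand of chromosome 8, the 5 sites between 61117538 and 61121192 had 65 reads with scrambled siRNA and 2113 with CF Im25 siRNA (7.49 and 218 CPM), a 29.2-fold difference (22.8 to 37.9). No siRNA gave 13.6 CPM and CF Im59 siRNA 111 CPM, so the CF Im59 library was also above both alkaline controls. The RNase I libraries gave 35.8 CPM with scrambled siRNA and 42.4 CPM with CF Im68 siRNA, a much smaller difference. Between 134111921 and 134114176 on chromosome 4 (plus strand), the values were 0.230 CPM with scrambled siRNA, 0.121 with no siRNA, 15.1 with CF Im59 siRNA and 22.5 with CF Im25 siRNA. In the RNase I libraries they were 1.92 CPM with scrambled siRNA and 2.74 CPM with CF Im68 siRNA. Between 46590747 and 46591425 on chromosome 12 (minus strand), scrambled siRNA gave 0.576 CPM (5 reads) and CF Im25 siRNA 24.6 CPM (238 reads). No siRNA gave 2.18 CPM and CF Im59 siRNA 2.17 CPM, both above scrambled siRNA. The rise was 42.7-fold against scrambled siRNA and 11.3-fold against no siRNA, and CF Im59 siRNA was level with no siRNA. In the RNase I libraries the unit had 1.28 CPM with scrambled siRNA and 4.11 CPM with CF Im68 siRNA. Between 173955906 and 173956987 on chromosome 5 (plus strand), the unit had 36.2 CPM with scrambled siRNA, 15.5 with no siRNA, 2.08 with CF Im59 siRNA and 2.07 with CF Im25 siRNA. The RNase I libraries gave 1.49 CPM with scrambled siRNA and 1.55 CPM with CF Im68 siRNA at this locus. The alkaline controls also differed from each other at this locus and at the one on chromosome 12.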

How the data were processed

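The deposited files hold counts: per the file contents, each line gives a nucleotide, a strand and the whole number of reads ending there, which the authors did not scale. Builds hg19 and GRCh37 are named, per the submitters' processing notes. For the aligner, the read filters and duplicate or internal-priming removal, the details are not given in the sources used. PCR copies are not independent molecules, so intervals can be too narrow.

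Sites were called once on the 6 libraries pooled at equal weight, and 91.5% to 92.7% of each library's reads fell in sites. Values were computed with Python 3.11.15, numpy 2.4.6, pandas 2.3.3 and scipy 1.17.1, and scaling alternatives with edgeR 4.0.16 normalization factors. The scripts were tested on simulated data. Unit totals are scaled to reads in nuclear units, and CPM values of units likewise. Intervals of medians and of shares of loci treat loci as independent, which they are not.

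Named pairs were the 10 largest rises, the 6 largest falls and the 4 shifted proximal pairs with the most reads, named sites were drawn from the 3 gained and 3 lost sites with the most unit reads, and named totals from the 4 largest in each direction, each total with at least 100 reads in 1 library and a 2-fold difference in the same direction against no siRNA. Members, rules and lists were chosen with earlier results of these data known. Gene names, gene lists, markers and motif counts had been planned and were not analysed here, since no genome of the files' build was used.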

Additional observations from a re-analysis of the deposited data

How the results depend on the processing

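Of the summary results under the alternatives run, 48 values stayed, 23 moved and 1 reversed, where a count stayed if it was within 1.5 times and a median if it lay within the interval of the reported median over loci. For the named loci 85 lay within the counting interval of the reported value, 15 moved and 0 reversed. Distal shifts numbered 355 with a minimum of 20 reads and 88 with 100 reads, where main-site moves numbered 417. At 30 points there were 649 proximal and 56 distal shifts. The median change in share was 2.17 points with a 12 nt window, 3.75 with a 2 kb gap, 4.84 at 2 CPM, 4.79 for the first and last site, 5.48 with no siRNA as control and 5.12 with sites from the 4 alkaline libraries alone. The median mean position was -13.5 nt with the 12 nt window, -14.6 nt with the 2 kb gap and -50.1 nt against no siRNA, and the precision change against no siRNA was -0.773 points. Units with higher and lower totals numbered 3636 and 3660 with no minimum and 693 and 665 with 200 reads. With each position counted once only 4 pairs could be tested, with 0 proximal and 0 distal shifts and a median of -1.39 points. With a minimum of 10 positions in place of 50, chosen after seeing the data, there were 59 and 7 shifts over 4758 pairs, and the median was 4.11 points. Far fewer pairs were thus called than the 1227 and 188 of 6702 reported. With each position counted once the share is of positions and not of reads, so its median is not a like measure to the reported median. The part of PCR copies in the shifts was not tested. TMM and median-of-ratios scaling moved totals by 0.01 on the log2 scale. No paired analysis was possible because each group held 1 library. Depth limits falls and rises at loci with few reads.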

Other observations

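The alkaline libraries differed in makeup. Mitochondrial reads made up 1.07% of the CF Im25 library, 1.91% of the scrambled one and 1.55% of the one with no siRNA. Thinned to the same total, reads fell on 648434 positions with no siRNA, 686558 with scrambled siRNA and 739694 with CF Im25 siRNA, and 7.48%, 8.54% and 8.20% of reads lay outside the sites. Their part in the shifts was not tested.

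The 2 largest falls in proximal share had under 100 reads in a library, and they are named after their values were seen. On the minus strand of chromosome 19, the proximal site 40536818 held 110 of 121 reads with scrambled siRNA and 14 of 90 with CF Im25 siRNA, with 74.4% for no siRNA and 56.0% for CF Im59 siRNA. On the minus strand of chromosome 6, the proximal site 109765268 held 50 of 52 and 15 of 56 reads, with 79.7% for no siRNA and 68.2% for CF Im59 siRNA. At both the no siRNA library lay below the scrambled one.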
